A study of Mus musculus with 16 samples.

Results

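Collagens, laminins and integrins were followed as a group in tissue of the dorsal raphe nucleus (DRN), a midbrain region rich in serotonin neurons. Members were taken by gene symbol: collagen chains (Col, a number, a, a number), laminin chains (Lama, Lamb or Lamc and a number) and integrin subunits (Itga or Itgb and a number or letter), with Itgam left out. This rule found 31 of the 14504 genes listed, namely 19 collagens, 4 laminins and 8 integrins.

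Collagens and laminins are secreted proteins of the extracellular matrix. In the brain they lie mainly in the basement membranes around blood vessels and under the meninges, where collagen IV and laminin each form a sheet, while some collagens are made by neurons and span the cell membrane. Integrins are receptors made of an alpha and a beta chain that tie cells to this matrix, and those that hold the Itgav chain also bind latent TGF-beta.

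RNA came from 16 DRN samples of adult male C57BL/6 mice, 1 library each. The mice were either unstressed or exposed to chronic social stress over 30 days, and the stressed mice were classed by their behavior toward a partner as passive coping (PS, dep1 in the labels) or active coping (AS, dep2). Dexamethasone (DEX), a drug that acts on the glucocorticoid receptor, was injected at 2 mg/kg, with saline as its control, and tissue was taken after 6 h. This gave 3 control saline, 3 control DEX, 2 PS saline, 3 PS DEX, 3 AS saline and 2 AS DEX libraries, which are named by group and number (con for controls, sal for saline). Coping type was assigned from behavior and not by design, controls were housed differently from stressed mice, and tissue was punched from frozen sections, so all cell types of the punch were measured together. In such bulk tissue, fewer cells of a type and less RNA per cell cannot be told apart. Values are normalized counts, which are reads per gene divided by a size factor for each library, and between genes they are compared only per kb of exon.

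Markers of serotonin neurons were present in every library: 7 of 7 were listed, and their summed normalized counts ran from 307184 to 464797. Known glucocorticoid targets (8 of 8 listed) summed to 11849 to 14249.8 in the saline libraries and 29986 to 38597 in the DEX libraries. Endothelial markers (11 of 12 listed) and mural markers (10 of 10) were above 0 in every library. Of 14 markers of fibroblasts and leptomeninges only 3 were among the genes listed (Dcn, Islr and Mgp). Col1a1, Col3a1 and Lama2 were not among the rows analyzed here, nor was Itgbl1.

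Among the 31 members, 29 had at least 100 reads in every library, and the lowest value was 73 reads. Together the members took 0.086% to 0.162% of the reads of a library, whose totals in listed genes ran from 38207157 to 62447298. The members are long transcripts, with a median exon length of 6887 bp against 4038 bp over all genes, and their median level was 124 normalized counts per kb against 262 over all genes. A few collagens and integrins stood well above the rest of the family, as the plot of levels per length shows.

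**Figure D1:**
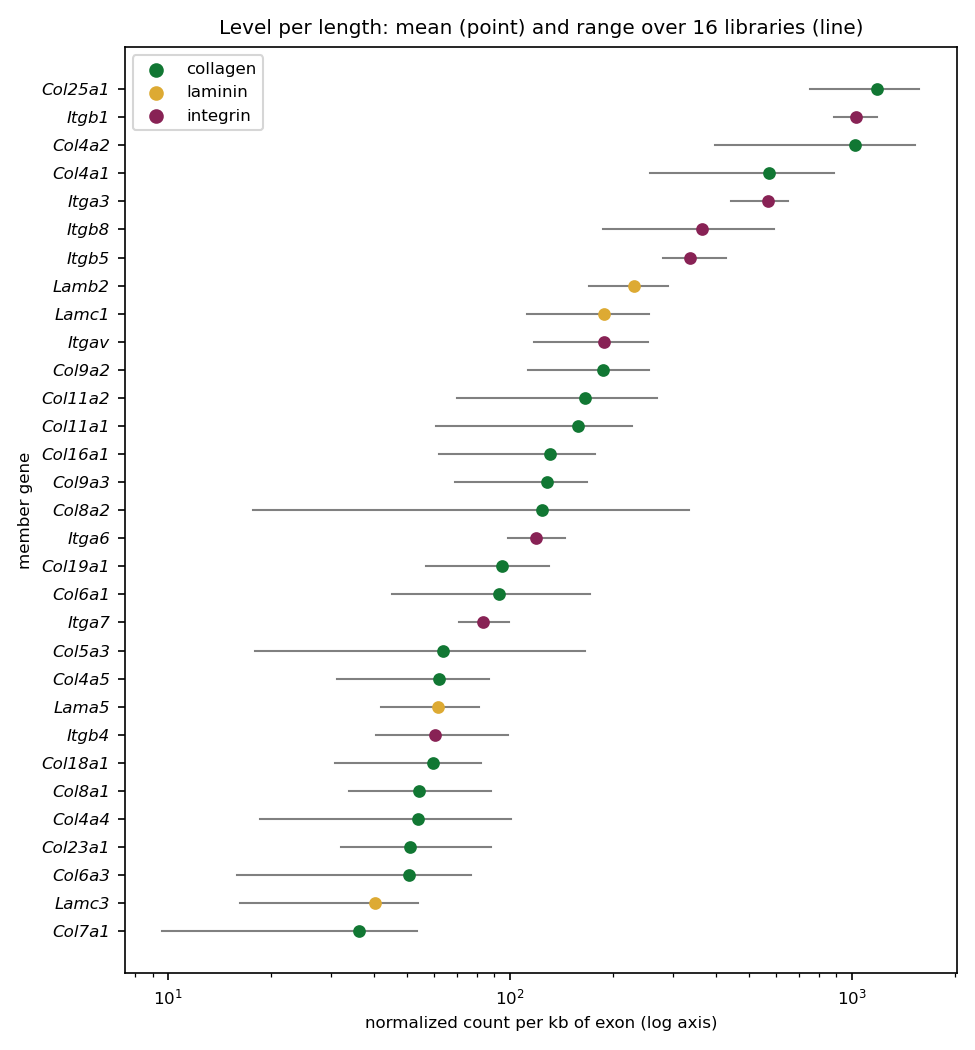
Level of each of the 31 members in normalized counts per kb of exon (log axis), with the mean over 16 libraries as a point and the range as a line, colored by family. Col25a1, Itgb1 and Col4a2 stood highest at over 1000 per kb, and Col8a2 had the widest range.

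Col25a1, a collagen of the neuronal membrane, had the highest level, with a mean of 1185 normalized counts per kb. Itgb1, the beta chain shared by most matrix integrins, followed with 1027 per kb, and Col4a2, a chain of the common collagen IV network, with 1022 per kb. Their ranges over the 16 libraries overlapped, so the order of these 3 was not resolved. The other chain of that network, Col4a1, had 571 per kb, and Itga3, a laminin receptor chain, had 569. The lowest levels were those of Col7a1, the anchoring fibril collagen (36.1 per kb), Lamc3, a laminin gamma chain (40.2), and Col6a3, a collagen VI chain (50.7), and their ranges overlapped as well. Lamb2, a laminin beta chain of vascular basement membranes, was the highest laminin at 230.4 per kb.

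Col4a1 and Col4a2 lie head to head on chromosome 8 of GRCm38, with RefSeq starts at 11312826 on the minus strand and 11312805 on the plus strand. The starts overlap by 22 bases, and since it is not stated whether reads were counted by strand, reads in this overlap could not be assigned with certainty. Both genes showed nearly the same profile over the libraries: both were lowest in AS_sal_40, and their highest values were in PS_dex_64 (Col4a1, 6619.7 normalized counts) and PS_sal_62 (Col4a2, 10102).

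**Figure D2:**
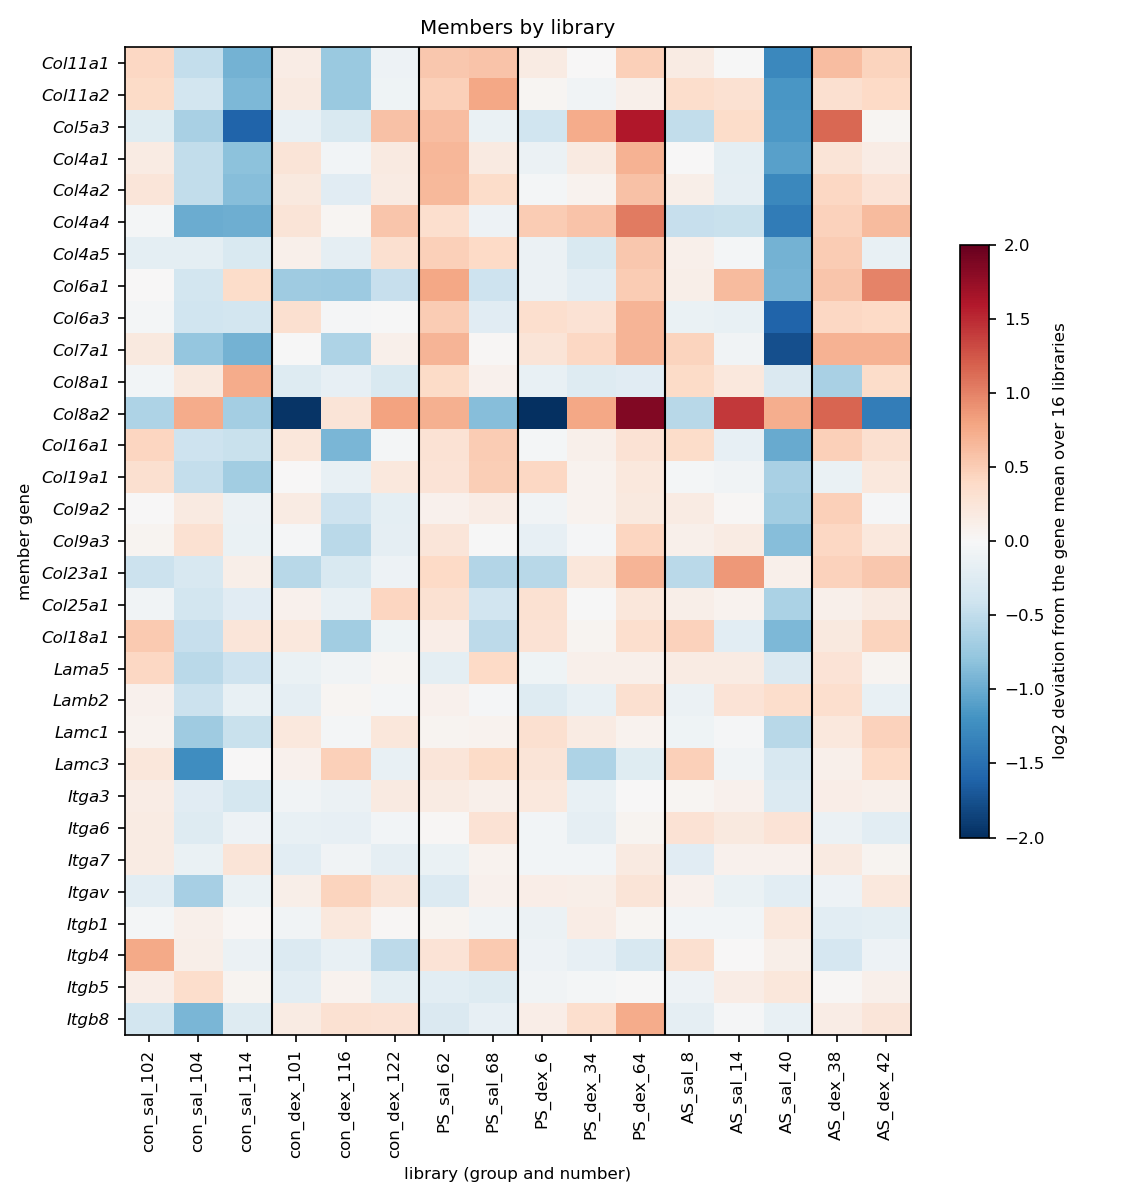
Log2 deviation of each member from its own mean over the 16 libraries, on log2(normalized count + 1), with libraries in columns by group and number and colors limited to 2 in either direction. AS_sal_40 was low across most collagens and Col8a2 passed the color limit, while most integrins were paler than the collagens.

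The 5 members that varied least were integrins, and the 10 that varied most were collagens. Itgb1 differed by 1.34-fold between its highest and its lowest library, Itga7 by 1.403-fold and Itga3 by 1.47-fold. Col8a2, a short-chain network collagen, varied by 18.9-fold, from 79.3 normalized counts in PS_dex_6 to 1498 in PS_dex_64, and Col5a3, a collagen V chain, varied by 9.26-fold. Libraries of the same group thus held both extremes of Col8a2, and it passed no test between groups.

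Ependymal cells are the ciliated lining of the ventricles, and 5 of their 6 markers were listed. The library lowest in Col8a2, PS_dex_6, also had the lowest sum of these markers (478 normalized counts), and the library highest in Col8a2 and Col5a3, PS_dex_64, had the highest (9713.5). Col5a3 was lowest in con_sal_114 (121.7 normalized counts), where the marker sum was 2476.6 and so above that of PS_dex_6. The part of the ependymal signal in these values was not tested.

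Single libraries weighed heavily on the collagens. AS_sal_40 was the lowest of the 16 for 14 members (45.2%, against 16.6% of all genes), and the median deviation of its collagens from their gene means was -0.94 on the log2 scale, against -0.0011 over all genes. con_sal_104 (control saline) was the lowest for 7 members (22.6%, against 18.1% of all genes). These were Itga6, Itgav, Itgb8, Lama5, Lamb2, Lamc1 and Lamc3, none of them a collagen, and the collagen median of con_sal_104 was -0.40. Another control saline library, con_sal_114, was the lowest for 3 members (9.68%, against 7.8% of all genes) and had a collagen median of -0.45. PS_dex_64 was the highest for 8 (25.8%, against 17.1%). Long transcripts were also low in the first 2 of these libraries: the longest genes (9643 bp and over) had a median deviation of -0.28 in AS_sal_40 and -0.40 in con_sal_104. AS_sal_40 also had the highest sum of microglia markers (16179.8 normalized counts, against 12188 or less elsewhere) and of the 3 fibroblast markers listed (1537, against 1009.6 or less). Blood cell markers (2184.7) and serotonin neuron markers (464797) were also highest there, and con_sal_104 had the next highest serotonin sum (454774). The part of these features in the collagen values was not tested, and results that rest on single libraries are given with and without them.

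The first question was how the members responded to DEX. Over the 3 phenotypes together, 5 of 31 members changed at an adjusted p under 0.1 (limma with Benjamini-Hochberg adjustment over all genes), beside 4.31% of all genes. Itgb8, Itgav, Col4a4 and Lamc1 rose and Itgb4 fell. Those that rose made 4 of 31 members, beside 2.78% of all genes called higher, and the single fall stood beside 1.53% called lower. At an unadjusted p under 0.05 there were 9 members, beside 14% of all genes, and the 4 that were not called were Col6a3 and Col5a3, with higher means, and Itga6 and Col8a1, with lower means. The average contrast weighs the DEX effects of controls, PS and AS equally. Its median over the members was 0.10 on the log2 scale, over the collagens 0.15, over the laminins 0.07 and over the integrins -0.03, with -0.0026 over all genes.

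Itgb8, the beta chain that pairs with the Itgav chain to bind latent TGF-beta, had 3012, 2071 and 3246 normalized counts in control saline libraries and 4379.9, 4814 and 4738 in control DEX libraries. PS saline libraries had 3203 and 3464, and PS DEX libraries had 4294, 4910.2 and 6540.5. AS saline libraries had 3433, 3815 and 3506, and AS DEX libraries had 4319 and 4593. All 8 DEX libraries thus lay above all 8 saline libraries. No other member did this, in either direction, and 1.37% of all genes were higher in this way. Averaged over phenotypes, Itgb8 rose by 0.57 ± 0.10 (log2 difference ± SE, adjusted p = 0.00429).

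In controls Itgb8 was the only member of 31 called in the limma fit, beside 1.26% of all genes, with a rise of 0.77 ± 0.16 (adjusted p = 0.0441). The call held with TMM scaling, library weights, edgeR or DESeq2, and in all but 4 of 16 fits that left out a library. This call was lost without con_sal_104 (log2 difference 0.57, adjusted p = 0.143), without any of con_dex_101, con_dex_116 and con_dex_122 (adjusted p of 0.122, 0.147 and 0.203), when only control libraries were fitted (0.212), and when a trend with transcript length was removed (0.1001). In PS the log2 difference was 0.63 ± 0.18 (adjusted p = 0.293) and in AS 0.31 ± 0.18 (adjusted p = 0.564), while DESeq2 called Itgb8 in PS. The paper lists Itgb8 among the few PS genes whose response to DEX differed in direction between the prefrontal cortex and the DRN. The DEX effects did not differ between phenotypes past the threshold: the log2 difference of the AS and control effects was -0.45 ± 0.24 (adjusted p = 0.941).

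Itgav, the alpha chain that partners Itgb8 and Itgb5, had 1729.7, 1263 and 1823 normalized counts in control saline libraries and 2155, 2726 and 2382 in control DEX libraries. PS libraries had 1649 and 2111 after saline and 2183, 2169.7 and 2395 after DEX. AS libraries had 2124, 1825 and 1719.8 after saline and 1866 and 2306 after DEX. Saline and DEX libraries were apart in controls and in PS and overlapped in AS. The arms were apart and higher for 8.51% of all genes in controls and 11.2% in PS. On average Itgav rose by 0.34 ± 0.10 (adjusted p = 0.0836), and this call was lost in 10 of 16 fits that left out a library, with adjusted p-values up to 0.340. It held without con_sal_102, con_sal_114, con_dex_101, PS_sal_68, AS_sal_8 or AS_dex_38. It was also lost once the length trend was removed (adjusted p = 0.154). In controls alone the log2 difference was 0.60 ± 0.15 (adjusted p = 0.108), past the threshold with TMM scaling, edgeR or DESeq2.

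**Figure D3:**
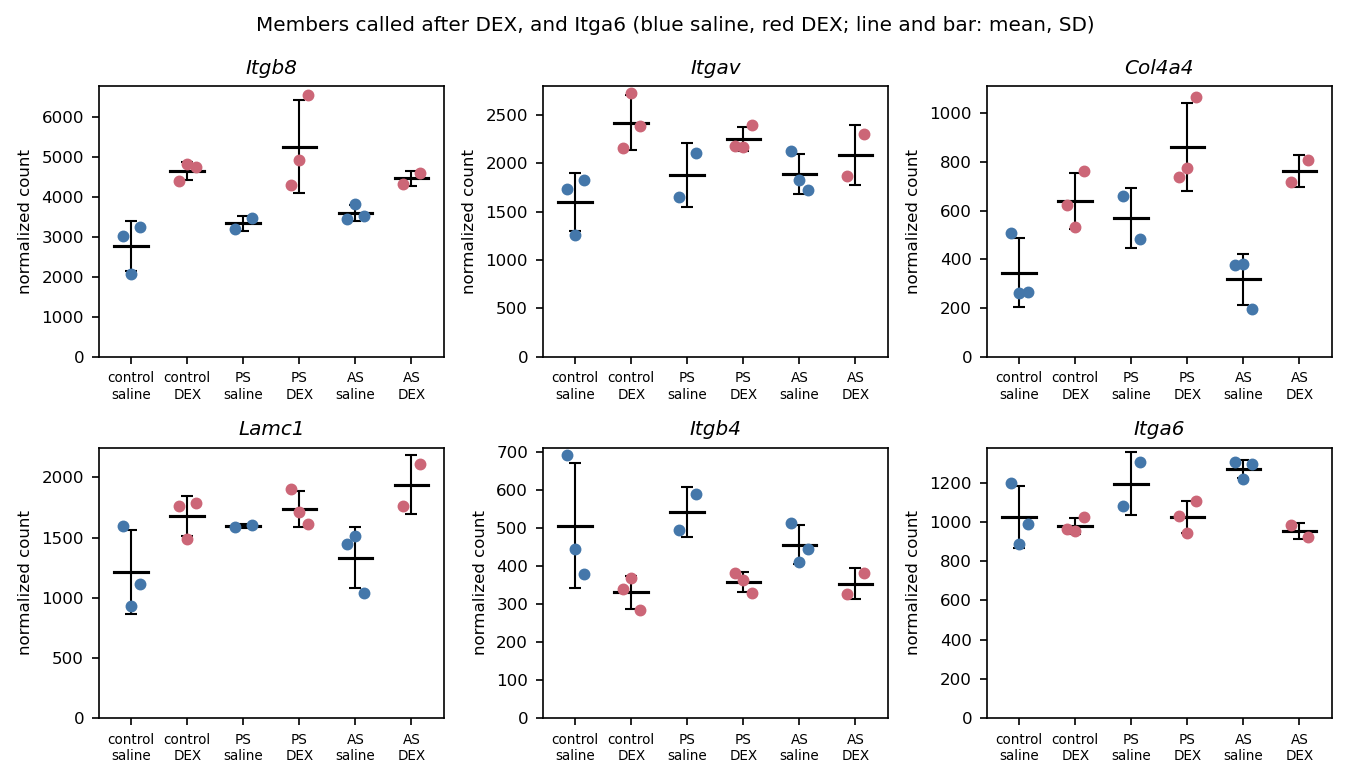
Normalized counts of the 5 members called after DEX and of Itga6 in each library, with saline in blue and DEX in red, a line at the group mean and a bar of 1 SD (n of 2 or 3). For Itgb8 every red point lies above every blue point, and for Itgb4 the DEX libraries lie below the saline libraries within each phenotype. The shares of all genes apart in these ways are given in the text.

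Col4a4 encodes a chain of the rarer collagen IV network that it forms with Col4a3 and Col4a5. It had 508, 261 and 265 normalized counts in control saline libraries and 624, 531 and 763 in control DEX libraries. PS libraries had 658 and 484 after saline and 738, 774 and 1068 after DEX, and AS libraries had 377, 380.4 and 197 after saline and 716 and 809 after DEX. Within each phenotype the DEX libraries lay above the saline libraries, although PS_sal_62 was above some DEX libraries of controls. The arms were apart and higher for 8.51% of all genes in controls, 11.2% in PS and 15.1% in AS, each taken alone. Col4a4 rose by 0.95 ± 0.18 on average (adjusted p = 0.00834), a call that held in all 16 fits that left out a library. Taken by phenotype, the log2 difference of controls was 0.95 ± 0.29, that of PS 0.59 ± 0.33 and that of AS 1.32 ± 0.33 (adjusted p = 0.215, 0.99993 and 0.132 in limma). DESeq2 on recovered reads called Col4a4 in controls and in AS, and edgeR called it in neither.

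Lamc1, the gamma chain of most laminins, had 1599, 929 and 1118 normalized counts in control saline libraries and 1762, 1493 and 1792 in control DEX libraries, so the arms overlapped. In PS the values were 1585 and 1608 after saline and 1901, 1710.1 and 1610.3 after DEX, which differ by little at their nearest. In AS they were 1446, 1510.0 and 1044 after saline and 1765 and 2111 after DEX. The AS arms did not overlap, beside 15.1% of all genes higher in this way. Lamc1 rose by 0.39 ± 0.11 on average (adjusted p = 0.0953). The call was lost in 12 of 16 fits that left out a library (adjusted p up to 0.345), all but those without con_sal_102, con_dex_116, AS_sal_8 or AS_sal_14, and with edgeR (adjusted p = 0.1005).

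Itgb4, the beta chain that pairs with Itga6 in the laminin receptor of hemidesmosomes, was the member that fell. Control libraries had 691, 445 and 379.9 normalized counts after saline and 340.4, 368 and 284 after DEX. PS libraries had 495 and 588 after saline and 381, 364 and 329 after DEX, and AS libraries had 512, 411 and 445 after saline and 325 and 382 after DEX. The arms were apart within each phenotype, by very little in controls, where the lowest saline library was close to the highest DEX library. The arms were apart and lower for 7.43% of all genes in controls, 10.1% in PS and 14.8% in AS, each taken alone. On average Itgb4 fell by 0.51 ± 0.12 (adjusted p = 0.0387), and the call was lost without PS_sal_68 or AS_dex_38 (adjusted p up to 0.160). A long noncoding RNA (B230344G16Rik) overlaps Itgb4 on the opposite strand, so its values are uncertain to that extent.

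Itga6, the laminin receptor alpha chain, had values in the same direction as Itgb4 but did not pass the threshold. In AS it had 1303, 1218 and 1292 normalized counts after saline and 983 and 923 after DEX. These arms did not overlap, beside 14.8% of all genes lower in this way. The average log2 difference was -0.23 ± 0.07 (adjusted p = 0.155), and in AS it was -0.41 ± 0.13 (adjusted p = 0.325). The DESeq2 test on recovered reads, the fit with library weights and the fit with the length trend removed each called Itga6 in the average contrast. Itga6 is also overlapped by a long noncoding RNA (Gm17250) on the opposite strand, so its values are uncertain to that extent.

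Within PS no member was called, beside 0.703% of all genes, and within AS none was called, beside 0.689%. DESeq2 called Itgb8 in PS and Col4a4 in AS, and edgeR called none in either. At an unadjusted p under 0.05 there were 2 members in PS (Itgb8 and Itgb4), beside 4.69% of all genes, 7 in AS, beside 9.36%, and 6 in controls, beside 12.1%. In AS 6 of the 7 were higher, beside 5.19% (Col4a4, Col6a3, Lamc1, Col7a1, Col11a1 and Col4a2), and the count moved with single AS libraries: 2 were higher without AS_sal_40 (beside 2.88% of all genes), 2 without AS_dex_42 (2.03%), 3 without AS_dex_38 (3.5%) and 11 without AS_sal_8 (9.48%). The median of the collagens in AS was 0.53 with all libraries and 0.29 without AS_sal_40, against 0.10 in controls and -0.05 in PS. The map of log2 differences shows these comparisons beside those between saline groups.

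**Figure D4:**
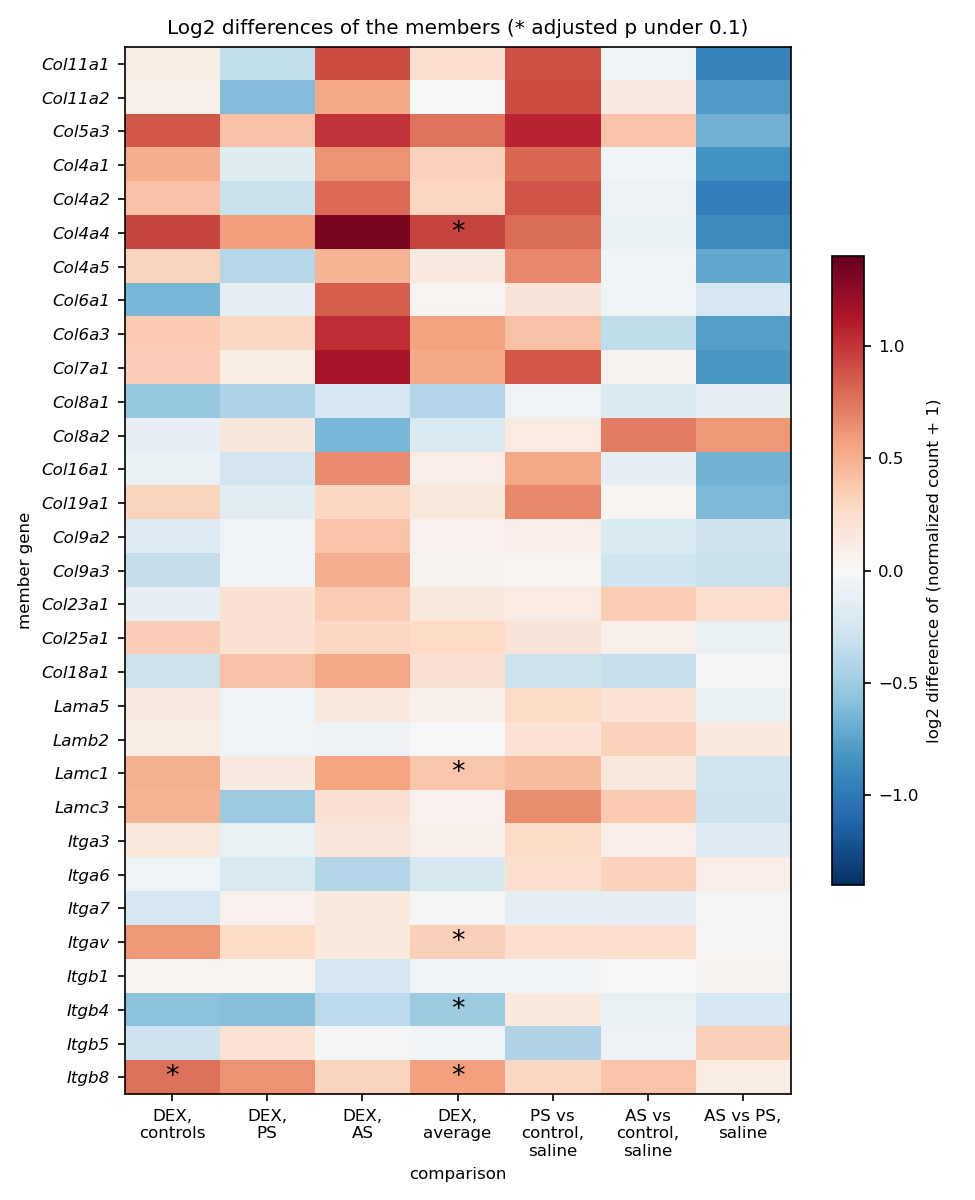
Log2 differences of the 31 members in the 3 DEX comparisons, their average and the 3 comparisons between saline groups, with a star at an adjusted p under 0.1. Stars stand for Itgb8 in controls and for Itgb8, Col4a4, Itgb4, Itgav and Lamc1 on average, and none stands in a saline comparison.

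The 5 called members lie on 4 chromosomes of GRCm38. By GENCODE, Itgb8 spans chromosome 12 from 119158022 to 119238802 (minus strand), Itgav chromosome 2 from 83724397 to 83806916 (plus), Col4a4 chromosome 1 from 82448423 to 82586849 (minus), Lamc1 chromosome 1 from 153218922 to 153332786 (minus) and Itgb4 chromosome 11 from 115974709 to 116008412 (plus). Itgav and Lamc1 overlap annotated pseudogenes on the opposite strand. Itgav also overlaps a processed transcript (Gm13684) on the opposite strand, and Lamc1 an annotated gene (Gm38009) on its own strand. Itgb8 and Col4a4 overlap no other gene. RefSeq promoter sequence of GRCm38.p6 was at hand for 25 of the 31 members and was read over the 250 bases before the start. Itgav and Col4a4 are shown because both rose after DEX and the bases shown lie outside any GENCODE exon. The Col4a4 stretch is what lies between its start and the first exon of Col4a3, which runs the other way. Each is given 5′ to 3′ on the strand of the gene, with CpG dinucleotides in capitals.
Itgav, chr2:83724147-83724396, plus strand: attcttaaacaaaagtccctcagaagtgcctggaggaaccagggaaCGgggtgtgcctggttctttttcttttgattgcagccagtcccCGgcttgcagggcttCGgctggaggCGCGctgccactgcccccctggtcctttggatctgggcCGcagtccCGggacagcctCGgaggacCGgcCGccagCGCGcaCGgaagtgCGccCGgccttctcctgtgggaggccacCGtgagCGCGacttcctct
Col4a4, chr1:82586850-82586920, minus strand: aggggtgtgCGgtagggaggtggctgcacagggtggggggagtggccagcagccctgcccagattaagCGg

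The Itgav window held 18 CpG and was 64.4% G or C, against medians of 6 CpG and 52.4% over all promoters of the table. The shorter Col4a4 stretch of 71 bases held 2 CpG and was 69.0% G or C. The palindromic glucocorticoid response element was searched on both strands as AGAACA, any 3 bases and TGTTCT. It occurred in 3 of 32851 windows (0.00913%) and in none of the 25 members' windows. Its 6-base arm AGAACA, which any full match also contains, occurred in 16.1% of all windows and in 1 of the 25. A window without a match says only that these letters are absent from it.

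Genes that work with the members were counted from a list of 113, of which 82 were listed. On average over phenotypes 8 of the 82 rose after DEX, beside 2.78% of all genes (P4ha2, Vcan, Ptk2b, Tns2, Tns3, Sdc4, Tgfb3 and Nrros) and 2 fell, beside 1.53% (Vtn and Mmp14). In controls 2 rose (Tns3 and Vcan) and 1 fell (Mmp14), beside 1% and 0.262% of all genes. In PS 1 rose (Sdc4), beside 0.579%. In AS 2 rose (Tns3 and Nrros) and 1 fell (Mmp14), beside 0.538% and 0.152%.

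Among proteins that link integrins to the cytoskeleton, 3 of 21 rose on average. For this and the classes below, the share of all genes was 2.78% called higher and 1.53% called lower. Tns3, a tensin of focal adhesions, had group means of 3275, 3704 and 3438 normalized counts after saline in controls, PS and AS and 5120.4, 5739.9 and 5816 after DEX, a rise of 0.69 ± 0.09 (adjusted p = 0.000445). Tns2, another tensin, rose by 0.51 ± 0.12 (adjusted p = 0.0365), and Ptk2b, a focal adhesion kinase, by 0.76 ± 0.15 (adjusted p = 0.00895). Sdc4, a membrane proteoglycan that acts beside integrins at adhesions, was the only 1 of 7 further matrix receptors called, with a rise of 0.74 ± 0.11 (adjusted p = 0.000858).

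Latent TGF-beta, the ligand of the Itgav and Itgb8 pair, had 5 partner genes listed, and 2 of them rose, beside 2.78% of all genes. Nrros, which holds latent TGF-beta on microglia, had group means of 189, 179.6 and 147 normalized counts after saline and 247, 270.1 and 321 after DEX in controls, PS and AS, a rise of 0.69 ± 0.11 (adjusted p = 0.00248). Tgfb3, a TGF-beta ligand, rose by 0.39 ± 0.10 (adjusted p = 0.0626). In other matrix glycoproteins and proteoglycans 1 of 17 rose and 1 fell: Vcan, a large proteoglycan, rose by 0.52 ± 0.11 (adjusted p = 0.0195), and Vtn, an integrin ligand made by pericytes, fell by 0.63 ± 0.14 (adjusted p = 0.0221).

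Collagen processing had 17 genes listed, of which P4ha2, a collagen prolyl hydroxylase, rose by 0.43 ± 0.08 (adjusted p = 0.00861). Among 10 matrix proteases and inhibitors Mmp14, a membrane collagenase, fell by 0.50 ± 0.08 (adjusted p = 0.00179), with group means of 572, 549 and 677 normalized counts after saline and 385, 445 and 442 after DEX in controls, PS and AS. None of 5 other basement membrane genes was called on average.

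Marker genes of the cell types that carry matrix and integrins were counted in the same contrast, in which 2.78% of all genes were called higher and 1.53% lower. Of the mural markers 0 of 10 were called and of the endothelial markers 1 of 11 (Tek, lower). Astrocyte markers had 1 of 8 called (Fgfr3, higher), microglia markers 3 of 12 (Cx3cr1, P2ry12 and Aif1, all lower) and oligodendrocyte markers 4 of 9 (Mog, Cnp, Ermn and Opalin, all lower). Summed microglia markers ran from 10367 to 16179.8 in saline and from 9307 to 11182 in DEX libraries, and oligodendrocyte markers from 132737 to 218354 and from 130483 to 183095. Their part in the DEX differences of the members was not tested.

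The second question was whether stress alone shifted the members. In the limma fit no member was called between any of the saline groups, and no gene of the table was (0% in each comparison). At an unadjusted p under 0.05, limma gave 8 members for PS against control, beside 7.67% of all genes, 2 for AS against control, beside 2.39%, and 8 for AS against PS, beside 3.41%. DESeq2 called 4, 11 and 1 genes of the table in these 3 comparisons and edgeR none, and neither called a member. Without con_sal_102, limma called 15 genes for PS and 20 for AS against control, again with no member.

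In the saline comparisons that involved PS, collagens made up most of the members with an unadjusted p under 0.05. For PS against control in saline, 7 collagens had higher means at an unadjusted p under 0.05 (Col4a1, Col4a2, Col4a4, Col4a5, Col11a1, Col11a2 and Col19a1), beside 4.65% of all genes, and the median of the collagens was 0.54. The count rested on single saline libraries: none of the 31 members was higher without con_sal_104 (beside 1.28% of all genes), 1 without con_sal_114 (5.76%), 12 without con_sal_102 (11.2%), 2 without PS_sal_62 (1.84%) and 3 without PS_sal_68 (1.22%). The collagen median ran from 0.39 to 0.76 in these fits. With the length trend removed 4 were higher, beside 2.85%. In all, 7 members were higher in both PS libraries than in all control libraries, beside 14.3% of all genes.

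**Figure D5:**
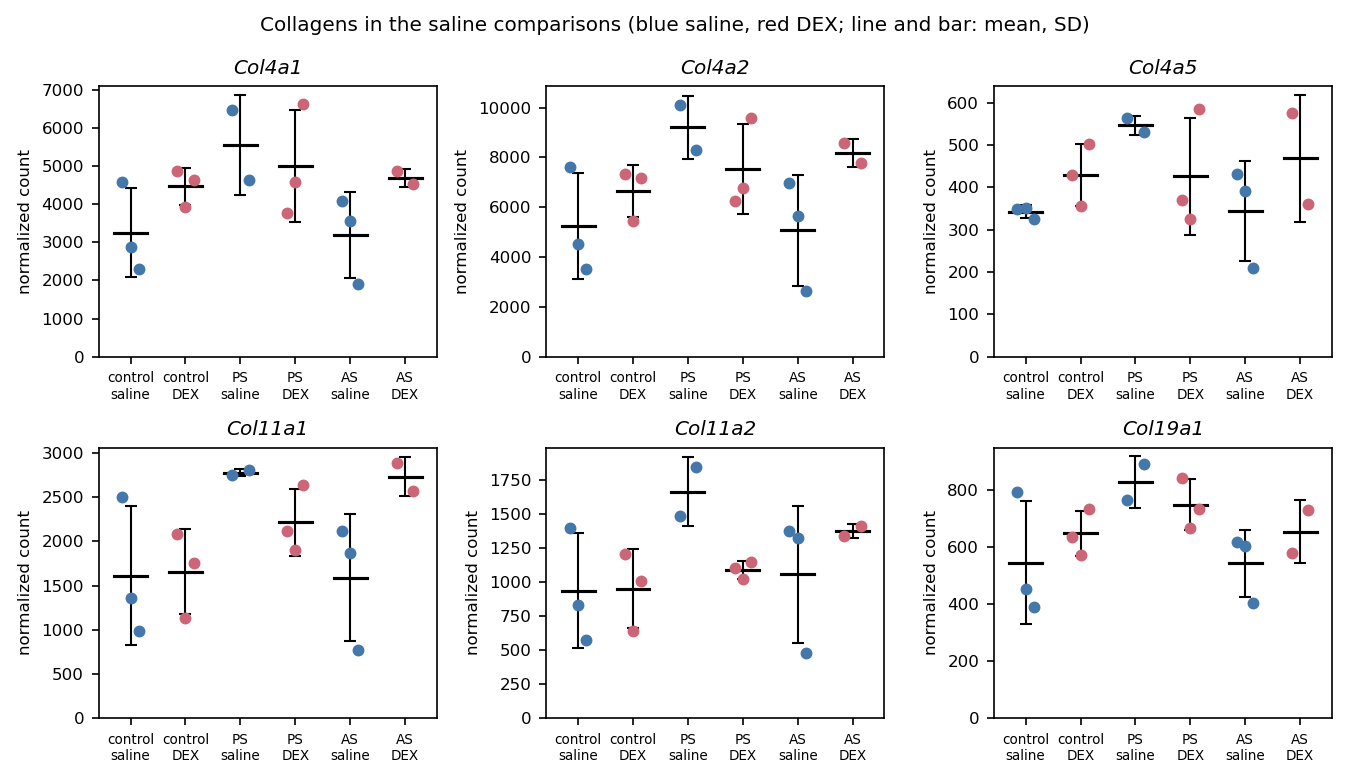
Normalized counts of 6 collagens named in the saline comparisons in each library, with saline in blue and DEX in red, a line at the group mean and a bar of 1 SD (n of 2 or 3). PS saline libraries were high, while the lowest AS saline point in each panel is AS_sal_40.

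Col4a1 had 4578, 2879 and 2314 normalized counts in control saline, 6469.6 and 4630.0 in PS saline and 4082, 3561 and 1918 in AS saline libraries. The 2 PS libraries lay above the others, with con_sal_102 just under PS_sal_68. By pair, 14.3% of all genes were higher in PS than in control without overlap, and 12.7% were lower in AS than in PS. The log2 difference of PS and control was 0.81 ± 0.33 and that of AS and PS was -0.85 ± 0.33, with adjusted p-values of 0.571 and 0.728. Col4a2 had values of 7629, 4541 and 3542 in control saline, 10102 and 8309.5 in PS saline and 6980.0, 5642 and 2635 in AS saline libraries, with log2 differences of 0.88 ± 0.36 and -0.96 ± 0.36 and the same adjusted p-values. As in Col4a1, con_sal_102 and AS_sal_8 came nearest to the PS libraries.

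Col11a1, a chain of collagen XI, had 2501, 1357 and 985 normalized counts in control saline, 2755 and 2804 in PS saline and 2121, 1872 and 772 in AS saline libraries. The PS libraries were again the highest, beside the same shares of all genes as for Col4a1. The control libraries were spread more widely than the gap to PS. Its log2 differences were 0.89 ± 0.41 for PS against control (adjusted p = 0.571) and -0.94 ± 0.41 for AS against PS (adjusted p = 0.728). Col19a1, a collagen that some neurons make, had 793, 454 and 390.0 in control saline, 764 and 893 in PS saline and 617, 606 and 405 in AS saline libraries, and overlapped between PS and control. The log2 difference of PS and control was 0.67 ± 0.27 (adjusted p = 0.571).

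For AS against PS in saline, the collagens had a median of -0.66, and 7 members were lower at an unadjusted p under 0.05, beside 1.64% of all genes. None was without AS_sal_40 (beside 0.455%) or without PS_sal_62 (0.731%), 4 were without PS_sal_68 (0.848%) and 10 without AS_sal_8 (7.04%). The collagen median was -0.29 without AS_sal_40 and -0.40 without PS_sal_62. For AS against control it was -0.06, and it lay above 0 without AS_sal_40 (0.29) or without con_sal_102 (0.21).

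Integrins differed in other ways. Itgb5, which pairs with the Itgav chain, had 1297, 1517 and 1236 normalized counts in control saline, 1021 and 994 in PS saline and 1113.5, 1317 and 1389 in AS saline libraries. Both PS libraries lay below all others after saline. Against control alone, 14.2% of all genes were lower in PS in this way, and 11% were higher in AS than in PS. The log2 difference was -0.42 ± 0.13 for PS against control (adjusted p = 0.571) and 0.33 ± 0.13 for AS against PS (adjusted p = 0.728). The values after DEX were 1027, 1244 and 1038 in controls and 1133, 1159.8 and 1178 in PS, so the log2 difference of the PS and control DEX effects was 0.49 ± 0.17 (adjusted p = 0.99962).

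In AS against control, Itga6 and Itgb8 had unadjusted p-values under 0.05, with log2 differences of 0.32 ± 0.12 and 0.39 ± 0.16 (adjusted p = 0.998 for both). For Itga6 the saline values were 1199, 888 and 988 in controls, below the 1218 to 1303 of AS. For Itgb8 the highest control library, at 3246, lay below the lowest AS library, at 3433, beside 2.38% of all genes higher without overlap. Neither had an unadjusted p under 0.05 without con_sal_104, while 5 members did without con_sal_102 (beside 3.33% of all genes called higher at that p) and 1 did without AS_sal_14 (0.834%).

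The third question was whether stressed and control mice differed after DEX. In the limma fit no member was called for PS against control, AS against control or AS against PS after DEX, beside 0%, 0.00689% and 0% of all genes. At an unadjusted p under 0.05 there was none for PS against control (1.23% of all genes), 2 for AS against control (3.5%) and none for AS against PS (1.7%). Of all genes DESeq2 called 12 between AS and control and 5 between AS and PS, and neither DESeq2 nor edgeR called a member.

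Col6a1, a chain of the beaded filament collagen VI, differed most between phenotypes after DEX. Control DEX libraries had 230.0, 226 and 273 normalized counts, PS DEX libraries 346, 324 and 535, and AS DEX libraries 551 and 752. The order ran from control through PS to AS without overlap. By pair, 15.4% of all genes were higher without overlap for AS against control, 9.52% for AS against PS and 3.96% for PS against control. The saline libraries were mixed, with 378, 291 and 485 in controls, 646 and 281 in PS and 408, 581 and 198 in AS. The log2 difference after DEX was 1.41 ± 0.42 for AS against control (adjusted p = 0.990) and 0.69 ± 0.37 for PS against control (adjusted p = 0.99995). Itgb1 was lower in AS than in control DEX libraries, with 3609.6 and 3636 against 3965, 4847 and 4259 and a log2 difference of -0.26 ± 0.12 (adjusted p = 0.990).

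In the limma fit the DEX effect itself differed between phenotypes past the threshold for no member and for no gene of the table (0% in each of the 3 comparisons). DESeq2 called 1 gene and limma with library weights 4 genes for AS against PS, none of them a member, and edgeR called none. At an unadjusted p under 0.05 the members were Itgb5 for PS against control, beside 2.1% of all genes, Col6a1 and Col9a3, a chain of collagen IX, for AS against control, beside 4.02%, and Col4a2 for AS against PS, beside 2.9%. The log2 difference of DEX effects was 1.47 ± 0.56 for Col6a1 (adjusted p = 0.941), 0.84 ± 0.38 for Col9a3 (adjusted p = 0.941) and 1.104 ± 0.51 for Col4a2 (adjusted p = 0.870). Lamc3 had the next smallest p for PS against control (-0.99 ± 0.52, adjusted p = 0.99962) and Col11a1 for AS against PS (1.25 ± 0.58, adjusted p = 0.870). The collagen median of the difference between AS and PS effects was 0.73, with 0.26 without AS_sal_40 and 0.49 without PS_sal_62.

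The remaining members had no unadjusted p under 0.05 in any of the 13 comparisons. These were 11 in number: the collagens Col8a2, Col9a2, Col16a1, Col18a1, Col23a1 and Col25a1, the laminins Lama5, Lamb2 and Lamc3, and the integrins Itga3 and Itga7. Among them were the highest collagen and the highest laminin per kb. After DEX on average, Col25a1 had a log2 difference of 0.28 ± 0.13 (adjusted p = 0.364) and Lamb2 of -0.0085 ± 0.11 (adjusted p = 0.979).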

How the data were processed

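RNA-seq of 16 DRN libraries was analyzed, grouped by the labels alone. Per the submitters' processing notes and the study's methods, the authors trimmed reads with fastp 0.20.1, aligned them with HISAT2 2.2.1 to GRCm38 (mm10) and counted them with featureCounts (Subread 2.0) on GENCODE vM22. The signal the authors deposited is normalized counts, the gene counts divided by DESeq2 1.36.0 size factors. The kit was strand-specific, but strand use in counting is not stated. The authors' deposited tables of comparisons hold their log2 fold changes and p-values and were not used. The study left out some PS and AS DEX samples with low Tph2, and its further DRN samples were not analyzed here. On reads recovered from these 16 libraries, DESeq2 called 437, 187 and 274 genes after DEX in controls, PS and AS. These are the DRN counts that the paper gives.

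Values multiplied by the size factor were whole reads for 100% of values (tolerance 0.01), which gave each library's depth. In limma 3.58.1 (R 4.3.3), group means of log2(normalized count + 1) were estimated from the 16 libraries in 1 fit, with eBayes and its trend option (residual df 10, prior df 3.88). P-values are two-sided and adjusted by Benjamini-Hochberg over 14504 genes in each of 13 contrasts, with calls at an adjusted p under 0.1. A fold on this scale understates the change of low genes. Per the study's methods the libraries of a group are biological replicates from separate animals. Simulated counts with known changes were used to test the scripts.

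Gene spans and union exon lengths were read from GENCODE vM21 (99.97% of genes matched), and promoters from RefSeq. Named with values were members called in any contrast, the 2 of smallest p in each contrast, a set of reference members, the 3 highest and 3 lowest per kb, and partner genes called after DEX. Other members were named after their values were seen. The members and lists were chosen with earlier results of these data known. Other settings tried were TMM scaling, a pseudocount of 0.1 or of 10, a mean of 100 or more per gene, only the groups compared, library weights, edgeR 4.0.16 and DESeq2 1.42.0 on recovered reads, removal of a length trend (lowess span 0.3, chosen after seeing the data) and leaving out each library.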

Additional observations from a re-analysis of the deposited data

How the results depend on the processing

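The number of members called after DEX in controls (1 in the reported fit) was 2 with TMM scaling, 0 when only the groups compared were fitted, 2 with edgeR, 3 with DESeq2 and 0 with the length trend removed, and leaving out a library gave 0 to 4. In PS (0) it was 2 with library weights and 1 with DESeq2, and leaving out a library gave 0 to 1. In AS (0) it was 3 with library weights, 1 with DESeq2 and 2 with the length trend removed, and leaving out a library gave 0 to 1. For the average (5) it was 7 with library weights, 6 with DESeq2 and 4 with edgeR, and leaving out a library gave 3 to 5. The cause of these shifts was not tested, and the estimation of library weights stopped before full convergence. Comparisons between phenotypes and of DEX effects gave 0 under every alternative run, and no called difference changed direction. TMM scaling moved the median of all genes by at most 0.0162 on the log2 scale. With 2 or 3 libraries per group, single libraries such as AS_sal_40 could carry a comparison. Itgb8 and Col4a4 were called on average in all 16 fits without a library. No paired analysis was possible because the library numbers differ between groups and so pair no libraries.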
